A study of Mus musculus with 19 samples.

Results

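The genes described here encode the subunits of the 5 complexes of oxidative phosphorylation, and their transcripts were measured in total RNA of male mouse brains after treatment with the mTOR inhibitor CCI-779 or placebo. They were chosen by a rule on gene names, with earlier results of these data known. A probe set, the group of probes on the array that measures a transcript, was taken when its single gene symbol began with Nduf followed by a, b, c, s or v and a digit, was Sdha, Sdhb, Sdhc or Sdhd, or began with Uqcr, with Cox and a digit from 4 to 8, or with Atp5. This gave 164 of the 45037 probe sets that are no controls, for 81 of 18193 genes. Complex I had 73 probe sets for 35 genes, complex II had 9 for 4, complex III had 16 for 8, complex IV had 35 for 17 and complex V had 31 for 17. A probe set was tested when its mean log2 intensity over all arrays was at least 4, which left 136 member probe sets for 75 genes, and a gene is represented by its brightest tested probe set. The 6 genes that did not pass were Ndufa4l2, Ndufb4, Cox4i2, Cox7b2, Cox8b and Cox8c.

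The 19 arrays were of SCA3 mice given CCI-779 (n = 5), SCA3 mice given placebo (n = 5), wild-type (wt) mice given CCI-779 (n = 5) and wt mice given placebo (n = 4). SCA3 mice carry a transgene for spinocerebellar ataxia type 3, a disease caused by an expanded glutamine stretch in ataxin-3; the labels name neither the promoter that drives it nor the line. CCI-779 (temsirolimus) is an ester of rapamycin and was given by intraperitoneal injection from 5 weeks of age, 3 times weekly for 6 weeks, at a dose of 20 mg/kg, and placebo was injected as often. The labels do not say that each array came from a separate mouse, so the spread behind the p-values is that between samples and may be technical.

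Oxidative phosphorylation makes most of the ATP of neurons. Complexes I and II pass electrons from NADH and succinate to ubiquinone, complex III passes them to cytochrome c and complex IV to oxygen, and complexes I, III and IV pump protons that drive ATP synthesis in complex V. All complexes except II combine subunits encoded in the nucleus with a few encoded in mitochondrial DNA. Many of the nuclear genes share binding sites for NRF1, for ETS-family factors such as GABP, and for YY1 near their start sites.

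The promoters of the pair of genes that fell most under CCI-779 in both genotypes, Ndufa12 and Cox5b, and of both genes that rose, Uqcrc1 and Cox7a2l, are shown because these 4 carry the results below. Each run holds 250 bases before and 50 from the start site, from RefSeq on build GRCm38.p6, read along the gene's strand. Capitals mark the letters of the NRF1 motif (GCGCA, then any base, then GCGC), the ETS motif CCGGAAG, the YY1 motif AANATGGCG and the SP1 motif GGGCGG on either strand.
Ndufa12, chr10:94198785-94199084, plus strand: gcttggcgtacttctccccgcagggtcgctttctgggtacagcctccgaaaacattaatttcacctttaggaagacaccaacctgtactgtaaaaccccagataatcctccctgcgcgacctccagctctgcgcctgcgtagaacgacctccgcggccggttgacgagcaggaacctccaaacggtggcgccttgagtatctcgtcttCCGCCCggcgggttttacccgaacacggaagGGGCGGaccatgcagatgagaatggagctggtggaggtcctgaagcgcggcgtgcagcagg
Cox5b, chr1:36691237-36691536, plus strand: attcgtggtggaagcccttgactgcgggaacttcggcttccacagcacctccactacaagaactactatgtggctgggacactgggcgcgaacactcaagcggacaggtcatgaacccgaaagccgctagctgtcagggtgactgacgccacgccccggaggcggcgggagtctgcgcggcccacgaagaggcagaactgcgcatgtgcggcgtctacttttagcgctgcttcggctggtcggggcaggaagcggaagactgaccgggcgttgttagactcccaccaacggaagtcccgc
Uqcrc1, chr9:108936398-108936697, plus strand: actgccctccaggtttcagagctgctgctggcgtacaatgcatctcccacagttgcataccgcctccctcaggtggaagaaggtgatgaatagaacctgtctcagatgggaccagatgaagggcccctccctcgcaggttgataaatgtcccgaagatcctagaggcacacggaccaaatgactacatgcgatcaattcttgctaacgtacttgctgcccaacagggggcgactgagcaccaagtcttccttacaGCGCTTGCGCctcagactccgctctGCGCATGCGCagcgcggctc
Cox7a2l, chr17:83514284-83514583, minus strand: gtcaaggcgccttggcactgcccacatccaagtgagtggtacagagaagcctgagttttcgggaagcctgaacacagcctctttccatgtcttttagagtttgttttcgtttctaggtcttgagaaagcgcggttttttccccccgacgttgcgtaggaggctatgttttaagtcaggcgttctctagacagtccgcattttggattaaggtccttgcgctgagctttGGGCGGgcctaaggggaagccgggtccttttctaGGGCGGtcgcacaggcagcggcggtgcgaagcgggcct
With the first transcribed base as position 1, Uqcrc1 held the NRF1 motif at 6 to 15 and at 31 to 40, and the site at 31 to 40 is the exact palindrome, with T as the free base. Ndufa12 held SP1 letters from -42 to -37 and from -11 to -6, and Cox7a2l from -22 to -17 and from 13 to 18. None of these letters occurred in the window of Cox5b. Of the 81 member genes 66 had an entry, with 71 promoters in all. The NRF1 motif was in 22.5% of these 71 promoters and in 4.60% of all 32851 promoters, and its exact palindrome, a special case of it, was in 5.63% and 0.971%. The ETS motif was in 23.9% of member promoters and 8.86% of all, the YY1 motif in 12.7% and 2.38%, and the SP1 motif in 40.8% and 35.7%. Among the 8 genes that fell in both genotypes, 1 promoter held the NRF1 motif, 2 held the ETS motif, 3 the YY1 motif and 3 the SP1 motif. A match is a description of these letters and not a binding site.

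The values were linear intensities and are given as log2. Mean intensities of the 19 arrays ran from 434 to 463, and arrays of a group correlated at r = 0.964 to 0.995. The bacterial control transcripts spiked in at hybridisation differed with the drug. Their mean log2 intensity was 10.75 to 10.97 on SCA3 CCI-779 arrays against 11.52 to 11.93 on SCA3 placebo arrays, and 10.33 to 11.00 on wt CCI-779 arrays against 11.26 to 11.79 on wt placebo arrays. The control transcripts added before labelling differed too, at a mean log2 of 4.88 to 5.73 on SCA3 CCI-779 arrays against 5.95 to 6.66 on SCA3 placebo arrays, and 5.36 to 5.78 on wt CCI-779 arrays against 5.75 to 6.53 on wt placebo arrays. The 3′ minus 5′ difference of the GAPDH control, a sign of RNA quality, averaged -0.35 ± 0.06 under CCI-779 against -0.52 ± 0.03 under placebo in SCA3 mice (SD, n = 5 each), and -0.28 ± 0.32 (n = 5) against -0.54 ± 0.04 (n = 4) in wt mice. The array wt CCI-779 replicate 1, whose label carries no number, and SCA3 CCI-779 replicates 2 and 5 stood apart from the other arrays in a principal component analysis. The 3′ minus 5′ difference of the actin control averaged 1.28 ± 0.33 under CCI-779 against 1.30 ± 0.03 under placebo in SCA3 mice. In wt mice it averaged 1.60 ± 0.55 against 1.28 ± 0.10. On wt CCI-779 replicate 1 the GAPDH difference was 0.28, against -0.44 to -0.39 on the other wt CCI-779 arrays, and the actin difference was 2.55. On SCA3 CCI-779 replicates 2 and 5 the actin difference was 0.96 and 0.88, the lowest of the 19 arrays. The spike-in level and the drug cannot be told apart in this design.

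CCI-779 in SCA3 mice lowered 17 of the 75 subunit genes and raised 2, by limma at an adjusted p under 0.05. The genes that fell belonged to complex I (7 of 33), complex IV (5 of 13) and complex V (5 of 17). Of complex II (4 genes) and complex III (8 genes) none fell, and the pair that rose was Uqcrc1 of complex III and Cox7a2l of complex IV. Over all 10454 genes tested, 6.09% were lower and 11.0% higher in the same comparison. The median change of the 75 genes was -0.12 on the log2 scale, against 0.00 over all genes tested, and 58 of the 75 were below 0. All SCA3 CCI-779 arrays lay below all SCA3 placebo arrays for 10 of the 75 genes and above them for 1, while 4.34% and 8.82% of all genes tested did so. In brain tissue fewer cells of a type and less RNA per cell cannot be told apart.

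**Figure D1:**
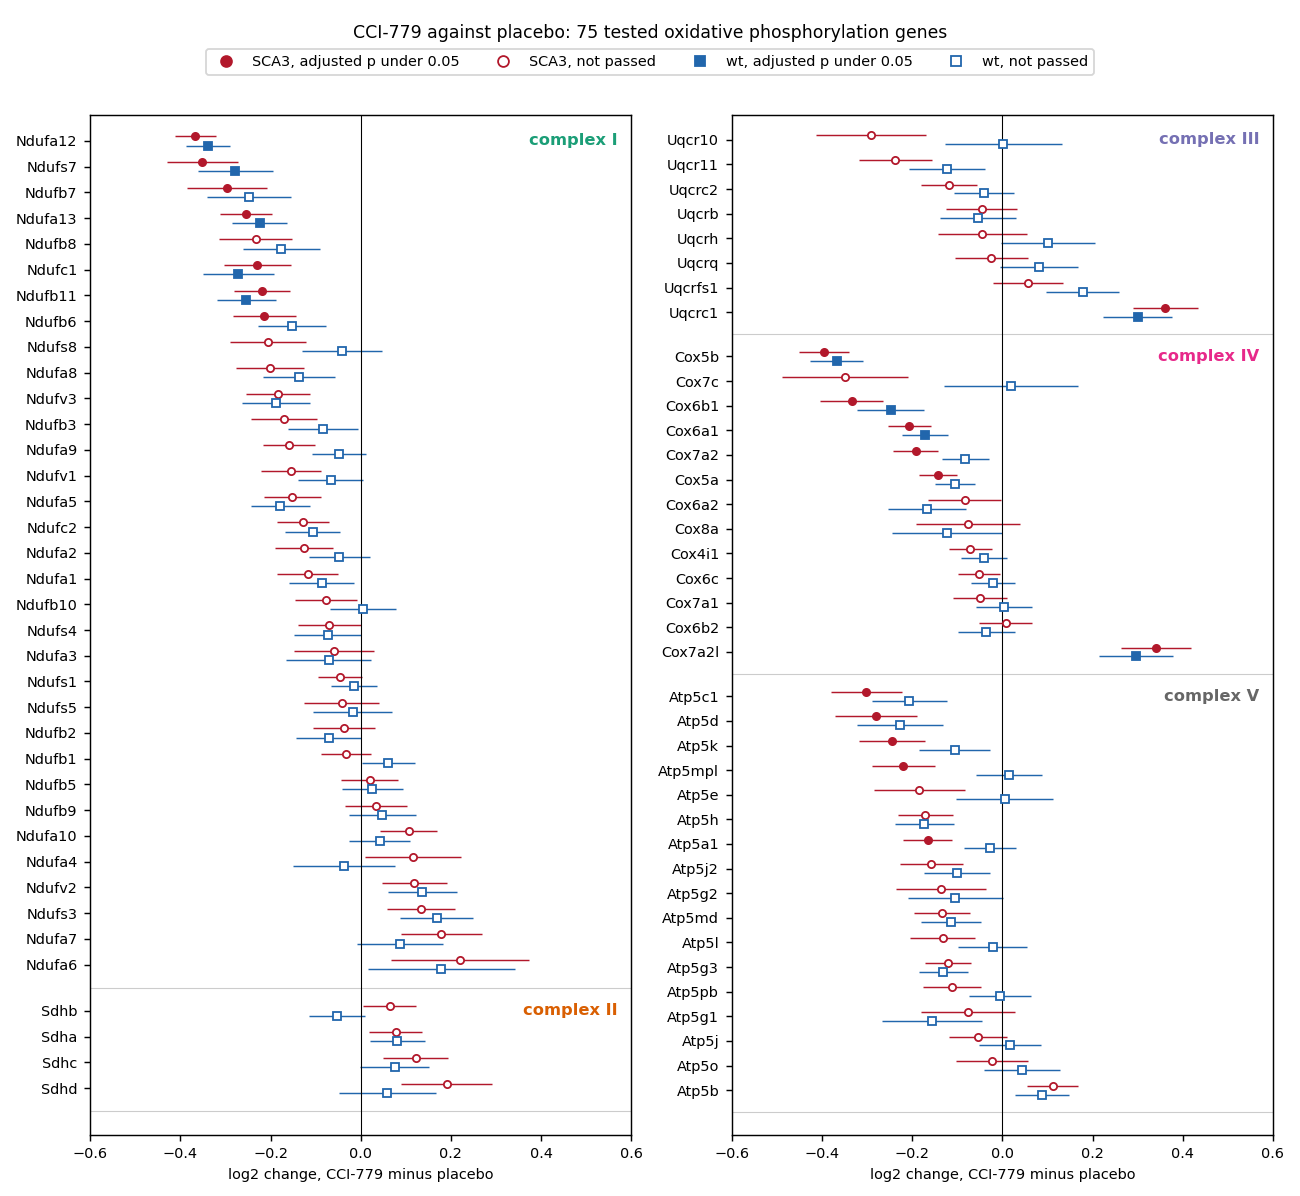
Log2 change under CCI-779 relative to placebo (horizontal axis) for each of the 75 tested genes by complex, with the standard error as bars. Circles are SCA3 and squares are wt, filled where the adjusted p was under 0.05; most points of complexes I, IV and V lie left of 0, and Uqcrc1 and Cox7a2l lie to the right in both genotypes.

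By complex, the median change in SCA3 mice was -0.13 for complex I, 0.10 for complex II, -0.05 for complex III, -0.08 for complex IV and -0.14 for complex V. These sizes are relative to the authors' scaling: centring each array on its median shifted every SCA3 change by -0.06. The 75 genes then split into 36 lower and 2 higher, with 11.7% and 8.39% of all genes tested called in those directions, and their median was -0.18. The median of complex II was 0.04 after centring. The count of 17 also depended on single arrays. Of the SCA3 CCI-779 arrays, leaving out replicate 1 or 2 gave 11 and leaving out replicate 5 gave 9. Of the SCA3 placebo arrays, leaving out replicate 4 gave 11, replicate 2 gave 10, replicate 3 gave 9 and replicate 5 gave 8. When the fit held the spike-in level as a covariate, no subunit gene was called in either direction, while the median change of the 75 genes was -0.19. Ndufa12 then changed by -0.45 (adjusted p 0.20), Cox5b by -0.43 (adjusted p 0.23), Uqcrc1 by 0.29 (adjusted p 0.47) and Cox7a2l by 0.26 (adjusted p 0.56). Without both SCA3 CCI-779 replicates 2 and 5, 5 genes were lower and 2 higher.

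Complex I, the NADH dehydrogenase and the largest of the complexes, held Ndufa12, an accessory subunit of its peripheral arm, which had the smallest p of all 75 genes. Its log2 intensity was 12.87, 12.91, 12.90, 12.89 and 12.88 on the SCA3 CCI-779 arrays against 13.18, 13.33, 13.31, 13.19 and 13.28 on the SCA3 placebo arrays. In wt mice it was 13.01, 12.92, 12.99, 13.00 and 12.92 under CCI-779 against 13.33, 13.29, 13.22 and 13.38 under placebo. Every CCI-779 array lay below every placebo array in both genotypes. The change was -0.37 (SE 0.05, adjusted p 2.0e-04, limma), or 0.775-fold, in SCA3 mice and -0.34 (SE 0.05, adjusted p 9.0e-04), or 0.790-fold, in wt mice.

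Ndufs7, a core subunit that carries an iron-sulfur cluster next to the ubiquinone site, had log2 intensities of 11.97, 11.98, 12.09, 12.16 and 11.96 under CCI-779 against 12.19, 12.45, 12.39, 12.32 and 12.57 under placebo in SCA3 mice. In wt mice the values were 12.29 on CCI-779 replicate 1 and 11.98 to 12.12 on the other CCI-779 arrays, against 12.49, 12.44, 12.25 and 12.29 under placebo. The groups did not overlap in SCA3 mice, while in wt mice CCI-779 replicate 1 lay within the range of placebo. The change was -0.35 (SE 0.08, adjusted p 0.0068) in SCA3 and -0.28 (SE 0.08, adjusted p 0.037) in wt mice. A second, dimmer probe set of Ndufs7 changed by 0.22 (SE 0.10, adjusted p 0.17) in SCA3 and 0.19 (SE 0.11, adjusted p 0.26) in wt mice, opposite in sign to the first.

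Ndufa13, also known as GRIM-19, is an accessory subunit of complex I. It had log2 intensities of 12.53, 12.49, 12.48, 12.66 and 12.41 under CCI-779 against 12.66, 12.89, 12.81, 12.70 and 12.78 under placebo in SCA3 mice. In wt mice they were 12.68, 12.57, 12.53, 12.53 and 12.48 under CCI-779 against 12.80, 12.80, 12.72 and 12.81 under placebo. The groups did not overlap in either genotype, although the nearest arrays of the SCA3 groups both rounded to 12.66. The change was -0.25 (SE 0.06, adjusted p 0.0075) in SCA3 and -0.22 (SE 0.06, adjusted p 0.026) in wt mice. Of the other membrane-arm accessory subunits, Ndufb11 fell in both genotypes, with changes of -0.22 (adjusted p 0.024) in SCA3 and -0.25 (adjusted p 0.019) in wt mice. Ndufc1 fell likewise, with changes of -0.23 (adjusted p 0.045) in SCA3 and -0.27 (adjusted p 0.033) in wt mice. Ndufb7 fell by 0.30 (adjusted p 0.030) in SCA3 mice and changed by -0.25 (adjusted p 0.089) in wt mice. Ndufb6 fell by 0.21 (adjusted p 0.049) in SCA3 mice and changed by -0.15 (adjusted p 0.18) in wt mice.

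Among the 6 tested core subunits of complex I, 1 fell in SCA3 mice, and the median change was -0.10. Among its 27 tested accessory subunits 6 fell, and the median change was -0.13. In wt mice 1 core subunit and 4 accessory subunits fell, with medians of -0.03 and -0.07. Over all genes tested 6.09% were lower in SCA3 and 1.64% in wt mice. The core count rests on the probe set that represents a gene. In SCA3 mice some dimmer probe sets of the core subunits Ndufv2 and Ndufs8 fell, while the dimmer one of Ndufs7 was above 0. Some subunits pointed the other way without passing the test: Ndufa6 changed by 0.22 in SCA3 mice, the highest value of the complex, and Ndufs3, a core subunit, by 0.13 (adjusted p 0.25). Ndufa4 was grouped here by its name, although it is now known as a subunit of complex IV, and it changed by 0.12 in SCA3 and -0.04 in wt mice, neither past the test. On SCA3 CCI-779 replicates 2 and 5 Ndufa4 was at 12.50 and 12.40, above every SCA3 placebo array. It was at 11.99, 11.89 and 12.13 on the other SCA3 CCI-779 arrays.

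Complex IV, cytochrome c oxidase, has a catalytic core encoded in mitochondrial DNA and a shell of nuclear subunits, all members here belonging to the nuclear set. Cox5b, a shell subunit on the matrix side that binds zinc, had log2 intensities of 13.24, 13.28, 13.33, 13.35 and 13.29 under CCI-779 against 13.57, 13.71, 13.71, 13.72 and 13.77 under placebo in SCA3 mice. In wt mice they were 13.45, 13.24, 13.33, 13.28 and 13.21 under CCI-779 against 13.67, 13.64, 13.61 and 13.77 under placebo. No CCI-779 array reached a placebo array in either genotype. The change was -0.40 (SE 0.06, adjusted p 3.8e-04), or 0.760-fold, in SCA3 mice and -0.37 (SE 0.06, adjusted p 0.0015), or 0.775-fold, in wt mice.

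Cox6b1, the subunit facing the intermembrane space, had log2 intensities of 13.51, 13.44, 13.60, 13.75 and 13.49 under CCI-779 against 13.76, 13.83, 13.97, 13.88 and 14.02 under placebo in SCA3 mice. In wt mice they were 13.79, 13.53, 13.67, 13.62 and 13.56 under CCI-779 against 13.95, 13.86, 13.78 and 13.93 under placebo. In wt mice replicate 1 of CCI-779 lay just above the lowest placebo array, and in SCA3 mice the groups were apart by less than 0.01. The change was -0.33 (SE 0.07, adjusted p 0.0049) in SCA3 and -0.25 (SE 0.07, adjusted p 0.039) in wt mice.

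Complex IV has isoform pairs, of which one member is made in most tissues and the other in heart and skeletal muscle or testis. Cox6a1, the widespread form, had log2 intensities of 14.49, 14.53, 14.49, 14.50 and 14.57 under CCI-779 against 14.69, 14.61, 14.74, 14.76 and 14.81 under placebo in SCA3 mice. In wt mice they were 14.54, 14.46, 14.47, 14.47 and 14.45 under CCI-779 against 14.68, 14.64, 14.55 and 14.73 under placebo. The groups did not overlap in either genotype, with changes of -0.21 (SE 0.05, adjusted p 0.0084) in SCA3 and -0.17 (SE 0.05, adjusted p 0.035) in wt mice. Cox7a2, the widespread partner of the muscle form Cox7a1, fell by 0.19 (adjusted p 0.015) in SCA3 mice and changed by -0.08 (adjusted p 0.31) in wt mice. Cox5a fell by 0.14 (adjusted p 0.032) in SCA3 mice and changed by -0.11 (adjusted p 0.13) in wt mice. Of the muscle and testis forms, Cox6a2, Cox6b2 and Cox7a1 were dim, with mean log2 intensities of 6.16, 5.21 and 4.88, and none passed the test in any comparison. The widespread forms Cox4i1 and Cox8a did not pass it either, with changes of -0.07 and -0.08 in SCA3 mice.

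Cox7a2l resembles Cox7a2 in sequence but is known as an assembly factor of respiratory supercomplexes, in which it joins complexes III and IV. Its log2 intensity was 11.16, 11.26, 11.33, 11.35 and 11.06 under CCI-779 against 10.85, 11.08, 10.88, 10.75 and 10.90 under placebo in SCA3 mice. In wt mice it was 11.30, 11.16, 11.11, 11.27 and 11.34 under CCI-779 against 11.07, 10.85, 11.03 and 10.81 under placebo. All CCI-779 arrays lay above all placebo arrays in wt mice, and in SCA3 mice CCI-779 replicate 5 lay just below placebo replicate 2. The change was 0.34 (SE 0.08, adjusted p 0.0077), or 1.27-fold, in SCA3 mice and 0.30 (SE 0.08, adjusted p 0.027), or 1.23-fold, in wt mice. The other probe sets of Cox7a2l that passed the test pointed the same way, with changes of 0.52 and 0.40 in SCA3 mice and 0.32 and 0.30 in wt mice.

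Uqcrc1, the first core protein of complex III, was the other gene that rose. Its log2 intensity was 11.55, 11.76, 11.43, 11.59 and 11.71 under CCI-779 against 11.11, 11.14, 11.31, 11.32 and 11.35 under placebo in SCA3 mice. In wt mice it was 11.33, 11.43, 11.46, 11.55 and 11.40 under CCI-779 against 11.26, 11.02, 11.06 and 11.19 under placebo. The groups did not overlap in either genotype. The change was 0.36 (SE 0.07, adjusted p 0.0036), or 1.28-fold, in SCA3 mice and 0.30 (SE 0.08, adjusted p 0.018), or 1.23-fold, in wt mice. The other core protein, Uqcrc2, changed by -0.12 (adjusted p 0.21) in SCA3 and -0.04 (adjusted p 0.72) in wt mice. Of the 8 tested genes of complex III no other passed the test, and 6 were below 0 in SCA3 mice. With each array centred on its median, 2 of the 8 were lower and 1 higher in SCA3 mice, against 11.7% and 8.39% of all genes tested. In wt mice 1 was then lower and none higher, against 5.25% and 5.49%.

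**Figure D2:**
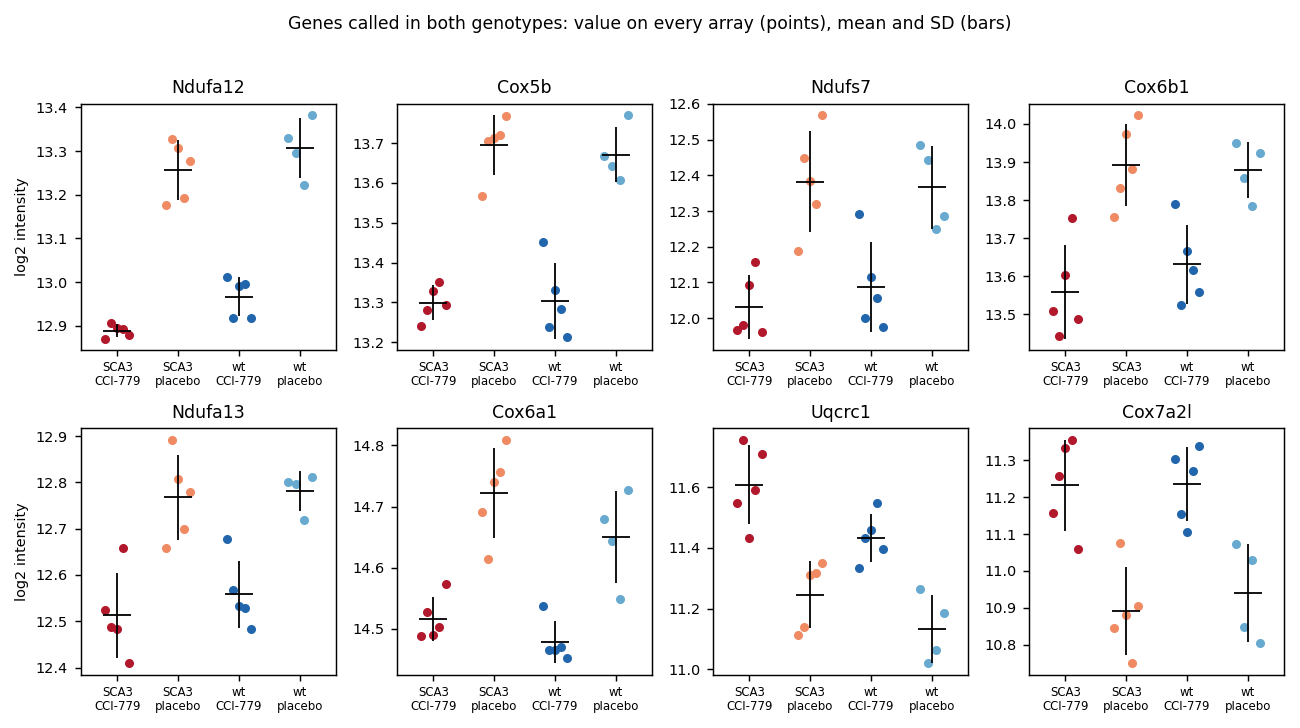
Log2 intensity (vertical axis) on every array in the 4 groups for 8 genes called in both genotypes; points are arrays, and bars are the group mean and SD. In Ndufa12 and Cox5b the CCI-779 arrays lie wholly below the placebo arrays, and in Uqcrc1 wholly above them.

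Complex V, the ATP synthase, had 5 genes that fell in SCA3 mice and none called in wt mice. With each array centred on its median, 10 of its 17 genes were lower in SCA3 mice and 5 in wt mice, against 11.7% and 5.25% of all genes tested. The F1 head of complex V, which makes ATP, includes the gamma subunit Atp5c1, the rotating stalk. Atp5c1 had log2 intensities of 12.58, 12.34, 12.67, 12.78 and 12.34 under CCI-779 against 12.75, 12.78, 12.86, 12.91 and 12.93 under placebo in SCA3 mice. In wt mice they were 12.64, 12.51, 12.65, 12.73 and 12.58 under CCI-779 against 12.86, 12.82, 12.76 and 12.88 under placebo. In SCA3 mice CCI-779 replicates 2 and 5, which stood apart in the principal components, were the lowest, and the groups overlapped; in wt mice they did not overlap. The change was -0.30 (SE 0.08, adjusted p 0.016) in SCA3 and -0.21 (SE 0.08, adjusted p 0.11) in wt mice. Without SCA3 CCI-779 replicates 2 and 5 Atp5c1 no longer passed the test.

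The other genes of complex V that fell in SCA3 mice were Atp5d, the delta subunit of the stalk (-0.28, adjusted p 0.044), Atp5k, subunit e of the membrane part (-0.24, adjusted p 0.034), Atp5mpl, a small membrane-part protein (-0.22, adjusted p 0.041), and Atp5a1, the alpha subunit of the head (-0.17, adjusted p 0.048). In wt mice these 4 changed by -0.23, -0.11, 0.01 and -0.03, none past the test. In SCA3 mice none of the 4 passed the test without SCA3 CCI-779 replicates 2 and 5. Each of them also lost the call in several fits that left out 1 array, while Atp5c1 kept it in all such fits. The other probe set of Atp5d changed by 0.22 (adjusted p 0.19) in SCA3 mice, and with the probe sets averaged Atp5d was at -0.03. Another probe set of Atp5a1 changed by 0.03 (adjusted p 0.75) in SCA3 mice. Atp5b, the catalytic beta subunit, was the 1 gene of complex V above 0 in SCA3 mice, at 0.11, without passing the test. Of the 5 head genes 3 fell in SCA3 mice, with a median of -0.18, and of the other 12 genes 2 fell, with a median of -0.13. Over all genes tested 6.09% were lower in SCA3 mice.

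Complex II, succinate dehydrogenase, is encoded wholly in the nucleus and also acts in the citric acid cycle. None of its 4 genes passed the test in any comparison. Sdhd, an anchor in the membrane, had log2 intensities of 9.90 to 10.22 under CCI-779 against 9.67 to 10.12 under placebo in SCA3 mice, and the groups overlapped. Its change of 0.19 (SE 0.10, adjusted p 0.22) was the largest of complex II. The flavoprotein Sdha changed by 0.08 in SCA3 and in wt mice, the iron-sulfur subunit Sdhb by 0.06 in SCA3 and -0.05 in wt mice, and the other anchor, Sdhc, by 0.12 in SCA3 and 0.07 in wt mice. In wt mice Sdhd changed by 0.06. The directions rest on the processing and on the probe set. A second tested probe set of Sdha was lower on average under CCI-779 in SCA3 mice (log2 11.90 to 12.13 against 11.87 to 12.25). So was that of Sdhd (9.54 to 9.69 against 9.64 to 9.80), while that of Sdhc was higher on average. In wt mice those of Sdha and Sdhc were lower on average under CCI-779 and that of Sdhd was higher. With the spike-in covariate Sdhd was at -0.13 and Sdhb at -0.09 in SCA3 mice, and the median of complex II there was -0.03. In wt mice, after centring of each array on its median, Sdha, Sdhc and Sdhd were at -0.02, -0.03 and -0.05.

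In wt mice CCI-779 lowered 8 of the 75 genes and raised 2, while 1.64% of all genes tested were lower and 11.5% higher. The 8 were Ndufa12, Ndufs7, Ndufa13, Ndufb11 and Ndufc1 of complex I and Cox5b, Cox6b1 and Cox6a1 of complex IV, and the pair that rose was again Uqcrc1 and Cox7a2l. The median change was -0.05 against 0.08 over all genes tested, and 50 of the 75 genes were below 0. By complex it was -0.07 for complex I, 0.07 for complex II, 0.04 for complex III, -0.08 for complex IV and -0.10 for complex V. For 8 genes all wt CCI-779 arrays lay below all wt placebo arrays, and for 3 they lay above, as did 2.42% and 14.1% of all genes tested.

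Centring each array on its median shifted every wt change by -0.10. It left 23 of the 75 genes lower and none higher, against 5.25% and 5.49% of all genes tested, and put the medians of complexes II and III at -0.04 and -0.06. The 8 calls rested on single arrays except for Ndufa12 and Cox5b, which were called whichever array was left out. The count was 4 without wt CCI-779 replicate 2 or 5 or wt placebo replicate 1, 3 without wt CCI-779 replicate 3 or 4, and 2 without wt placebo replicate 2 or 4. Cox7a2l was no longer called higher without wt CCI-779 replicate 1 or 4 or wt placebo replicate 4, nor Uqcrc1 without wt placebo replicate 3, and neither was called without wt placebo replicate 2, with adjusted p of up to 0.090 and 0.067. The median of complex III was -0.01 without wt placebo replicate 2. When the fit held the spike-in level as a covariate, no subunit gene was called in wt mice, while the median change of the 75 genes was -0.15. Ndufa12 then changed by -0.44 (adjusted p 0.25), Cox5b by -0.41 (adjusted p 0.40), Uqcrc1 by 0.22 (adjusted p 0.79) and Cox7a2l by 0.20 (adjusted p 0.82).

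The changes in the 2 genotypes share no arrays. All 8 genes called lower in wt mice were among the 17 of SCA3 mice, and both higher genes were the same. The sign agreed for 61 of the 75 genes, or 81.3%, and Pearson's r across the 75 genes was 0.83. Over all 10454 genes tested the sign agreed for 72.1% and r was 0.71. Genes are not independent replicates, and both comparisons carry the same difference in spike-in level.

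**Figure D3:**
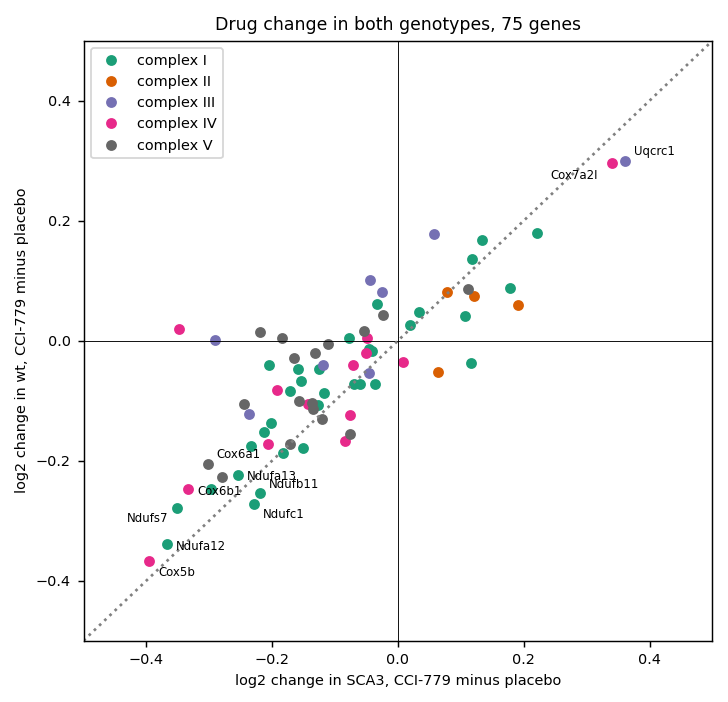
Log2 change under CCI-779 in SCA3 mice (horizontal) and wt mice (vertical) for the 75 genes, coloured by complex, with the line of equal change dotted and the genes called in both genotypes named. The 8 lower genes lie at the lower left, and Uqcrc1 and Cox7a2l stand alone at the upper right.

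The level of each complex on single arrays overlapped between treatments. Taken as the median deviation of its genes from their means over 19 arrays, the 75 genes lay between -0.11 and 0.04 on SCA3 CCI-779 arrays against -0.04 and 0.18 on SCA3 placebo arrays. In wt mice they lay between -0.11 and 0.02 under CCI-779 against -0.05 and 0.12 under placebo. For complex IV the ranges were -0.10 to 0.00 on SCA3 CCI-779 arrays against -0.01 to 0.19 on SCA3 placebo arrays.

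**Figure D4:**
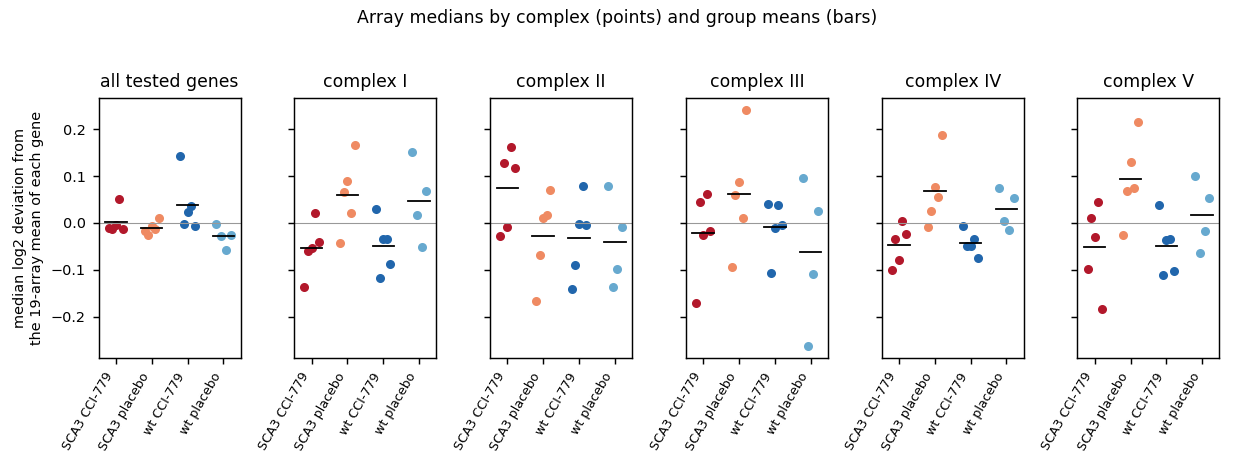
Median log2 deviation of all tested genes and of the genes of each complex from their means over 19 arrays (vertical axis), per array and group; points are arrays and bars are group means. For complexes I, IV and V the CCI-779 means lie below the placebo means with overlapping arrays, and wt CCI-779 replicate 1 is highest over all tested genes.

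The result differed between probe sets of a gene and followed how the probe sets are named, a pattern looked for after the values were seen. On this type of array a name ending in _at marks probes unique to a transcript, _a_at probes shared by transcripts of a gene, _s_at probes shared by transcripts that can be of different genes, and _x_at a set with some probes that can bind other sequences. Among the member probe sets with a plain ending 2 of 56 (3.57%) were lower in SCA3 mice, against 3.33% of all tested probe sets of that ending, and the median change was -0.03. Among those ending in _a_at, _s_at or _x_at 24 of 80 (30.0%) were lower, against 9.14% of all such probe sets, and the median change was -0.14. In wt mice the shares were 1 of 56 (1.79%) against 1.64%, and 14 of 80 (17.5%) against 3.35%. The share lower among plain member probe sets was near that of all plain probe sets in both genotypes. Of the 17 genes called lower in SCA3 mice, 16 were represented by a probe set with a marked ending, the other being Atp5mpl, and so were all 8 in wt mice and both higher genes in each.

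In 40 of the 75 genes several probe sets were tested, and in 11 of them a called probe set was opposed in sign by another. Beside Ndufs7, these included Ndufb9, whose brightest probe set changed by 0.03 (adjusted p 0.78) in SCA3 mice while a dimmer one fell by 0.28 (adjusted p 0.0058), and Ndufv2, a core subunit, with 0.12 (adjusted p 0.28) and -0.27 (adjusted p 0.0080). Plain probe sets of Ndufb6, Ndufb7, Ndufc1, Ndufb11 and Cox5a changed by 0.12, 0.08, 0.04, 0.09 and 0.11 in SCA3 mice, none past the test. Ndufa12 had a probe set that fell like its brightest, by 0.35 in each genotype, and a dimmer one that did not pass the test, with changes of -0.08 in SCA3 and 0.11 in wt mice. Cox5b had 2 further probe sets that fell in SCA3 mice, with changes of -0.36 and -0.31, and another 2 that did not pass the test there, with changes of -0.16 and -0.01. In the 20 member genes with both an _a_at and a plain probe set, the _a_at one had the lower change in 15 in SCA3 mice and 16 in wt mice, with a median difference of -0.19 in each. Over the 1116 genes tested with both kinds, this held for 62.8% and 71.4%, with median differences of -0.10 and -0.17. The _a_at probe set was the brighter one in 17 of the 20 member genes and in 551 of the 1116.

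**Figure D5:**
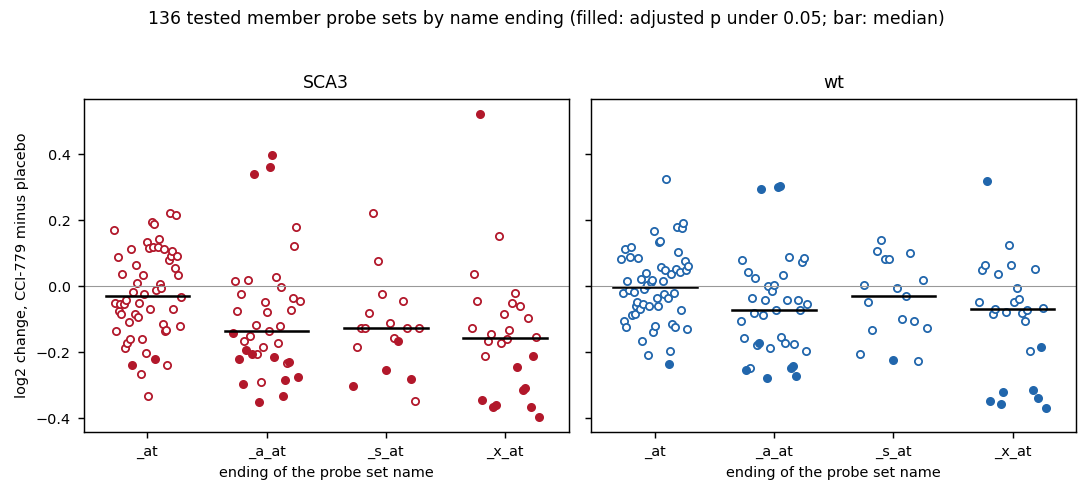
Log2 change under CCI-779 relative to placebo (vertical axis) of the 136 tested member probe sets by the ending of their name, in SCA3 (left) and wt mice (right); filled points had an adjusted p under 0.05 and bars are medians. Nearly all filled points lie under the endings _a_at, _s_at and _x_at.

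The transgene comparisons gave no call among the 75 genes. In SCA3 placebo against wt placebo none was called by limma, as in 0% of all genes tested in each direction, and 1 had an unadjusted p under 0.05. Of all 10454 genes tested 556 had such an unadjusted p. The median change was 0.04, against 0.02 over all genes tested. The members with the smallest p were Atp5mpl (0.18, SE 0.07, adjusted p 0.81), Ndufb9 (0.15, SE 0.07, adjusted p 0.87) and Ndufs3 (0.17, SE 0.08, adjusted p 0.87). In SCA3 CCI-779 against wt CCI-779 none was called either, as 0% of all genes tested were higher and 0.0191% lower, and 7 had an unadjusted p under 0.05. The median change was 0.00, against -0.04 over all genes tested. Of all 10454 genes tested 1892 had an unadjusted p under 0.05. The smallest p was that of Cox7c, a small complex IV subunit measured dimly here, with log2 intensities of 5.52, 5.17, 5.57, 5.87 and 5.33 in SCA3 mice against 6.41, 5.77, 5.75, 5.82 and 6.11 in wt mice, a change of -0.48 (SE 0.14, adjusted p 0.17). Next were Uqcrc2 (-0.15, adjusted p 0.27) and Uqcrc1 (0.17, adjusted p 0.27).

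The drug change was not shown to differ between genotypes for any subunit gene. The interaction, the SCA3 change minus the wt change, was called by limma in none of the 75 genes and in 0% of all genes tested in each direction, and 1 member had an unadjusted p under 0.05. This was Atp5mpl (-0.23, SE 0.10, adjusted p 0.63), followed by Cox7c (-0.37, SE 0.20, adjusted p 0.69) and Atp5a1 (-0.14, SE 0.08, adjusted p 0.70). Of all 10454 genes tested 868 had an unadjusted p under 0.05. 

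The calls among neighbouring genes of the pathway are read against the shares of all genes tested, 6.09% lower and 11.0% higher in SCA3 mice and 1.64% lower and 11.5% higher in wt mice. Of 5 carriers and subunits that the name rule leaves out, Cyc1, the cytochrome c1 of complex III, fell by 0.27 (SE 0.06, adjusted p 0.010) in SCA3 mice and changed by -0.17 (adjusted p 0.11) in wt mice. Atpif1, the inhibitor of ATP synthase, changed by -0.13 (adjusted p 0.072) in SCA3 mice, and Dmac2l, a coupling factor of that enzyme, by -0.23 (adjusted p 0.17). Of 41 assembly factors 3 fell and none rose in SCA3 mice, and none fell and 2 rose in wt mice, so the share lower in SCA3 mice was near that of all genes and the shares higher were below it. Those that fell were Pet100 (-0.56, adjusted p 0.0076), Cox19 (-0.42, adjusted p 0.014) and Cox15 (-0.35, adjusted p 0.030), each known to act on complex IV. Those that rose in wt mice were Cox18 (0.39, adjusted p 0.014), also for complex IV, and Sdhaf1 (0.37, adjusted p 0.032), for complex II, and Ndufaf4, for complex I, changed by 0.32 (adjusted p 0.055). No probe set carried the symbol of a subunit encoded in mitochondrial DNA.

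Set against the same shares of 6.09% and 11.0%, 2 of 14 regulators of mitochondrial gene expression fell and none rose in SCA3 mice, Polrmt (-0.52, adjusted p 0.021), the mitochondrial RNA polymerase, and Tfb1m (-0.38, adjusted p 0.043), a ribosomal RNA methyltransferase. In wt mice none fell and 4 rose, against 1.64% and 11.5% of all genes. These were Tfam (0.42, adjusted p 0.0021), which packs mitochondrial DNA, the GABP subunits Gabpb2 (0.83, adjusted p 0.0065) and Gabpb1 (0.61, adjusted p 0.026), and the coactivator Ppargc1a (0.36, adjusted p 0.018). In SCA3 mice these 4 changed by 0.03, 0.22, 0.31 and 0.11, none past the test, and the difference between genotypes passed the test for no gene tested. Of the factors whose motifs were searched, Nrf1, which was dim, changed by -0.03 in SCA3 and -0.06 in wt mice, and Yy1 by 0.08 in SCA3 and 0.11 in wt mice. Gabpa, the subunit of GABP that binds DNA at ETS motifs, changed by -0.11 (adjusted p 0.49) in SCA3 and 0.29 (adjusted p 0.080) in wt mice. Of 17 genes of the citric acid cycle 3 fell and 1 rose in SCA3 mice, against 6.09% and 11.0% of all genes, and 2 fell and 3 rose in wt mice, against 1.64% and 11.5%. Cs, citrate synthase, fell, with changes of -0.32 (adjusted p 0.0018) in SCA3 and -0.26 (adjusted p 0.012) in wt mice. Mdh2, malate dehydrogenase, fell, with changes of -0.24 (adjusted p 0.010) in SCA3 and -0.21 (adjusted p 0.035) in wt mice. Suclg1 of succinyl-CoA ligase rose by 0.27 (adjusted p 0.0041) in SCA3 and by 0.26 (adjusted p 0.010) in wt mice. Dlst of the oxoglutarate dehydrogenase complex changed by 0.14 (adjusted p 0.11) in SCA3 mice and rose by 0.23 (adjusted p 0.025) in wt mice.

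Markers of several brain cell types moved with the drug beside the subunit genes, where 6.09% of all genes tested were lower and 11.0% higher in SCA3 mice and 1.64% and 11.5% in wt mice. Of 7 oligodendrocyte markers 4 fell in SCA3 mice and none was called in wt mice, and their summed intensity was 67873 to 74254 on SCA3 CCI-779 arrays against 77793 to 101973 on SCA3 placebo arrays, and 63661 to 78161 on wt CCI-779 arrays against 75708 to 91282 on wt placebo arrays. The smallest p in SCA3 mice were those of Cnp (-0.57, adjusted p 8.1e-04), Ugt8a (-0.75, adjusted p 0.0015) and Mal (-0.70, adjusted p 0.0024). Of 8 microglial markers 4 fell in SCA3 and 3 in wt mice, with sums of 2858 to 3649 on SCA3 CCI-779 arrays against 3927 to 4359 on SCA3 placebo arrays, and of 2754 to 3364 on wt CCI-779 arrays against 3948 to 4455 on wt placebo arrays. Csf1r (-0.40 in SCA3 and -0.57 in wt mice) and P2ry12 (-0.52 and -0.62) fell in both genotypes. In each genotype 1 of the 8 was above 0, at 0.42 in SCA3 and 0.25 in wt mice. Of 8 neuronal markers 2 rose and 1 fell in each genotype, and their sums overlapped, at 89641 to 94514 on SCA3 CCI-779 arrays against 89773 to 94589 on SCA3 placebo arrays. Of 5 markers of parvalbumin interneurons 3 rose in SCA3 mice (Gad2, Gad1 and Kcnc2) and 2 in wt mice (Gad1 and Kcnc2). The median changes of the 5 were 0.24 and 0.21. In SCA3 mice 2 of the 5 were below 0, the lowest at -0.28, and in wt mice 1 was, at -0.18. Of 6 markers of meninges and fibroblasts 2 rose in SCA3 mice (Aldh1a2 and Bgn) and 1 in wt mice (Aldh1a2), and all 6 were above 0 in both genotypes. Of 8 astrocyte markers 1 rose in SCA3 mice (Slc1a2) and 2 in wt mice (Slc1a2 and Aldh1l1). Of the 8, 2 were below 0 in SCA3 mice, the lowest at -0.21, and 4 in wt mice, the lowest at -0.05. Of 5 choroid plexus markers 1 fell in SCA3 mice (Kcne2), where all 5 were below 0, and none was called in wt mice. The 3 endothelial, 2 muscle and 2 blood markers tested gave no call. Neuronal, oligodendrocyte and astrocyte markers were measured on every array, as the brain label implies, and the sums of the skeletal and cardiac muscle markers were 79.6 or less. The part of these cell types in the subunit changes was not tested.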

How the data were processed

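Total RNA of 19 mouse brain samples was labelled with biotin and hybridised to single-colour Affymetrix arrays. The authors' table, as deposited, holds intensities on a linear scale from 2.26 to 73595. The submitters' processing notes name GCRMA, a method that models background from the sequence of each probe and gives 1 normalized value per probe set, and the sources used here name no version of it.

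Values were turned into log2 as they stood. The 64 control probe sets were left out, and the 20473 of 45037 probe sets (45.5%) with a mean of at least 4 were tested with limma 3.58.1 in R 4.3.3, in 1 fit of 4 group means with 15 residual degrees of freedom. Tests were two-sided, with Benjamini-Hochberg adjustment over all tested probe sets of a contrast and a threshold of 0.05. In the platform annotation 34945 probe sets had 1 symbol, 932 several and 9160 none, and only the first kind was named. All 164 member probe sets matched the RefSeq gene table by Entrez identifier.

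The members, lists, tests and named genes were chosen with earlier results of these data known. Named were all Sdh genes, the Cox isoform pairs, up to 10 called members per direction and comparison by p, the next by p where under 3 were called, the largest change of each complex, genes with opposed probe sets, and 3 genes of each other pathway list; marker lists, for which the rule also gave 3 genes, are given by counts with only some of these genes. Atp5k, Ndufs8, Gabpa, Atp5mpl as a call, Atp5b, Ndufa4, Ndufa6, Nrf1 and Yy1 were named after their values were seen. The fit was tested on simulated data. The number of arrays limits the precision. Alternatives are given in the closing section.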

Additional observations from a re-analysis of the deposited data

Results flagged for a closer look

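Single arrays that stood apart from the rest of their group, by the gap to the nearest array relative to the range of the group, were found in 12 of 152 groups of values, and chance gives about 5%. On wt CCI-779 replicate 1, Cox6a1 was at a log2 intensity of 14.54 against 14.45 to 14.47 on the other 4 arrays, Ndufb7 at 11.46 against 11.07 to 11.17, and Sdhc at 10.84 against 10.98 to 11.02. On wt placebo replicate 3, Ndufa13 was at 12.72 against 12.80 to 12.81, Ndufb6 at 12.60 against 12.91 to 12.95, and Ndufb7 at 11.32 against 11.48 to 11.49. Ndufb6 was also low on SCA3 placebo replicate 4, at 12.72 against 12.86 to 12.90.

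The other 5 were in dim isoforms of complex IV. Cox6a2 was at 6.05 on SCA3 CCI-779 replicate 5 against 6.11 to 6.14, and at 5.98 on wt CCI-779 replicate 5 against 6.11 to 6.13. Cox6b2 was at 5.43 on SCA3 placebo replicate 5 against 5.17 to 5.18, and at 5.34 on wt placebo replicate 4 against 5.17 to 5.18. Cox7a1 was at 4.57 on SCA3 CCI-779 replicate 3 against 4.88 to 4.95. No cause was tested.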

How the results depend on the processing

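Of 1548 recomputations of 47 single-gene results 1300 kept direction and side of the threshold, 234 lost the call, 4 gained one and 10 reversed. The lost calls came from the 17 lower and 2 higher genes of SCA3 mice and the 8 lower and 2 higher genes of wt mice. The other single-gene results were not called in the main fit and could not lose a call. Of 724 recomputations of 22 counts and medians 664 stayed near the value given. A median was taken as near when it moved by less than the SD of array medians within groups. The counts of the transgene comparisons and of the interaction were 0 in every setting. The count of lower genes moved in 15 of 33 settings in SCA3 mice and 15 of 33 in wt mice. That of higher genes moved in 1 of 33 in SCA3 mice and 11 of 33 in wt mice. For SCA3 mice the 17 lower genes became 11 with no filter on dim probe sets, 36 with each array centred on its median, 9 in a fit of only the arrays compared, 9 when a gene's probe sets were averaged, 0 lower and 0 higher with the spike-in level as covariate, 5 without SCA3 CCI-779 replicates 2 and 5, and 9 when wt CCI-779 replicate 1 was left out too, an alternative chosen after seeing the data. For wt mice the 8 lower genes became 5 with no filter, 23 when centred, 15 with array weights, 3 with only the arrays compared, 3 with the mean of probe sets, 0 with the spike-in covariate and 14 without those 3 arrays, and the 2 higher genes became 1 after quantile normalization, 0 when centred, 1 with only the arrays compared, 0 with the spike-in and 1 with the GAPDH covariate. The correlations of deviations of same-numbered arrays ran from -0.20 to 0.29. With 4 or 5 arrays per group they cannot settle whether the numbers pair the samples, and the labels do not say. With the replicate number as a block 10 genes were lower in SCA3 mice, and 5 lower and 1 higher in wt mice. Leaving out 1 array at a time gave 8 to 21 lower and 2 higher in SCA3 mice, 2 to 12 lower and 0 to 2 higher in wt mice, and a median of complex IV in SCA3 mice from -0.149 to -0.062. That median was -0.159 with array weights and -0.181 without SCA3 CCI-779 replicates 2 and 5, with or without wt CCI-779 replicate 1, and with the spike-in covariate complexes II and III in SCA3 mice were at -0.027 and -0.223. In wt mice centring gave medians of -0.153 over all members, -0.176 for complex I, -0.038 for II, -0.187 for IV and -0.205 for V, the spike-in covariate gave -0.151, -0.169 for complex I, -0.094 for II and -0.156 for III, and complex IV was at -0.036 with no filter, -0.041 with the mean of probe sets and -0.119 with the GAPDH covariate. Reversed values were all in complex II and none was called: in wt mice Sdhd at -0.026 after quantile normalization, -0.046 when centred, -0.293 with the spike-in covariate and -0.0063 without wt placebo replicate 2, Sdha at -0.023 and Sdhc at -0.030 when centred, Sdhc at -0.00078 with the mean of probe sets and Sdhb at 0.0028 without wt placebo replicate 1, and in SCA3 mice Sdhd at -0.127 and Sdhb at -0.089 with the spike-in covariate. Leaving out 1 array at a time gave -0.097 to 0.0028 for Sdhb and -0.0063 to 0.128 for Sdhd in wt mice. Of the uncalled drug changes only those of the 4 Sdh genes and of Atp5d in wt mice were recomputed. The reversals therefore do not single out complex II. The cause of these moves was not tested.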

Other observations

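By single endings, the member probe sets ending in _a_at had 11 of 37 lower and 3 higher in SCA3 mice, those ending in _s_at 4 of 17 lower and none higher, and those ending in _x_at 9 of 26 lower and 1 higher, with median changes of -0.14, -0.13 and -0.16. In wt mice 6 of 37, 1 of 17 and 7 of 26 were lower. The 2 plain probe sets that were lower in SCA3 mice belonged to Atp5mpl and, as a second probe set (-0.24, adjusted p 0.015), to Cox7a2; the single plain one in wt mice was a dim probe set of Cox5b (-0.23, adjusted p 0.0496). Ndufs8, a core subunit of complex I, was represented by a probe set that did not pass the test, while 2 dimmer ones ending in _x_at fell, with changes of -0.31 and -0.36 in SCA3 and -0.31 and -0.36 in wt mice.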
